A study of Macaca mulatta with 7 samples.

Results

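A set of genes in macaque sperm RNA was listed as covered almost from end to end in every library. They were chosen by the deposited sense coverage, the fraction of annotated exonic bases under at least 1 alignment on the gene's own strand, which had to be 0.9 or more in all 7 libraries. This held for 249 of 18282 genes (1.36%), and for 195 of the 249 the fraction was 1 in all 7. The near-complete coverage held for 138 of the 249 when each count was limited to a usual read span. That limit has no effect on exons with many counts for their length. The libraries were made from total RNA of Macaca mulatta sperm passed through a PureSperm 40/80 density gradient, which enriches sperm over round cells and debris. Control 1 to 4 came from males of 5.88, 5.82, 5.72 and 5.92 years, and Maltreated 1 to 3 from males of 5.67, 5.71 and 5.78 years. The series title links the comparison to early life stress, but the labels say nothing more of what the Maltreated group met, and they name no genotype or drug for either group.

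Mature sperm transcribe little or nothing, so their RNA is mostly what is left from the spermatids they grew from, much of it in pieces. During that last phase of maturation histones are replaced first by transition proteins and then by protamines, and most cytoplasm with its ribosomes is shed. The genes that met the rule ranged from short, very abundant transcripts of a few exons to long genes under few counts.

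Sense counts over all genes ran from 5316383 in Control 4 to 30715268 in Maltreated 1, and the number of genes at a coverage of 0.9 or more in a single library ran from 1643 in Maltreated 2 to 7555 in Maltreated 1. A count is an alignment laid on an exon, and the deposited count of a gene is the sum over its exon entries, so an alignment over several exons is counted on each. CPM below is a gene's sense count per 1000000 sense counts of the library, and CPM per kilobase divides it by the annotated exonic length. The summed CPM of 21 leukocyte genes was 736 in Control 4 and 1115 in Maltreated 3, against 20.3 to 78.8 in the other 5 libraries. None of the 21 was a member, nor was any of 25 earlier germ cell, 15 testis somatic, 17 epithelial and accessory gland or 9 erythroid genes. Every one of these marker genes was covered under 0.5 in some library, as were 17753 of all 18282 genes. With 249 members among the 18282 genes, these marker counts lie near the share over all genes. Without Control 4 and Maltreated 3, 431 genes met the rule in the remaining 5 libraries, and without Control 4 alone 408 did. Without Maltreated 3 alone 258 did. Leaving out a library from a rule that asks for all libraries can only keep or raise this number. The part of leukocyte RNA in the choice of members was not tested.

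The proteins that pack sperm DNA gave the most complete set. Of 16 chromatin packaging genes in the files, 5 were members, namely the protamines PRM1, PRM2 and PRM3 and the transition proteins TNP1 and TNP2, and 10 of the other genes of that list were covered under 0.5 in some library. PRM2 lies on chromosome 16 from 11284766 to 11285608 on the minus strand, in 2 exons of 683 bases in all. It stood at 38695, 37107, 38340 and 29295 CPM in Control 1 to 4 and at 72127, 29233 and 29558 CPM in Maltreated 1 to 3. Maltreated 1 was highest and the groups overlapped. PRM1, 407 bases in 2 exons at 11290483 to 11290981 of the same strand, had 6285, 7462, 7005 and 5110 CPM in Control and 9222, 5931 and 6254 CPM in Maltreated libraries. PRM3 and TNP2 lie between them and the cytokine signalling inhibitor SOCS1, and these 5 neighbours formed an unbroken run of members over 26.9 kb. The run was far from even in level, since SOCS1 had a mean of 4.94 CPM and PRM2 one of 39194.

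TNP1, on chromosome 2b from 105014259 to 105014858, had 5928, 9130, 8496 and 4670 CPM in Control and 5523, 6606 and 6458 CPM in Maltreated libraries, again with overlapping groups. Divided by length, PRM2, TNP1 and PRM1 had the highest levels of all members, with 57385, 16718 and 16592 CPM per kilobase, just ahead of the ribosomal protein gene RPL38 with 16281. TNP2 stood at 2676 CPM per kilobase. NUPR1L closed the 20 highest with 922 CPM per kilobase. All 5 packaging genes were short, with a median exonic length of 407 bases.

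Other sperm structure lists gave fewer members. From the fibrous sheath, outer dense fibre and midpiece list 4 of 27 qualified. They were ODF1, an outer dense fibre protein of the tail, SMCP, a cysteine-rich protein of the sperm mitochondrial capsule, and the neighbouring genes IQCF1 and IQCF5. ODF1 had 295, 69.5, 161 and 526 CPM in Control and 686, 77.1 and 176 CPM in Maltreated libraries, a wide spread inside each group. SMCP had 542, 209, 404 and 879 CPM in Control and 794, 191 and 329 CPM in Maltreated libraries. In both genes Control 4 was the highest Control library and Maltreated 1 the highest Maltreated library.

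From the axoneme and motility list 3 of 46 were members, the sperm calcium channel subunits CATSPER2 and CATSPERD and the tubulin-binding TPPP2. CATSPER2 stood at 4846, 5091, 3289 and 4872 CPM in Control and 2610, 5780 and 3831 CPM in Maltreated libraries. The acrosome list gave 1 of 30, CRISP2, a secreted cysteine-rich protein of the acrosome and tail. Its CPM was 340, 216, 326 and 1554 in Control and 420, 251 and 298 in Maltreated libraries, so that Control 4 lay apart from the other 6. The late spermatid list gave 2 of 32, the actin-like ACTL9 at a mean of 11.5 CPM and the testis kinase TSSK6 at 242 CPM. GPX4, the selenoprotein peroxidase that also builds the mitochondrial capsule, was 1 of 16 glycolysis and energy genes, and HIST1H2BA, a testis histone H2B, and H3F3C were 2 of 27 histones.

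Ribosomal protein genes were the largest group with a shared function. They made up 13 members of 87 in the files, among them RPL19, RPL35, RPL36, RPL38, RPLP2, RPS15, RPS18 and RPS27. Of the 87, 53 were covered under 0.5 in some library, against 17753 of all 18282 genes. The 13 had a median length of 539 bases and a median level of 458 CPM, while the other 74 had 708 bases and 18.2 CPM. RPL38, on chromosome 17 from 67513164 to 67518666, led them with 8022, 12696, 10831 and 8314 CPM in Control and 6803, 8464 and 13591 CPM in Maltreated libraries. RPL35 had 3140, 2726, 4143 and 2126 CPM in Control and 5511, 3205 and 3862 CPM in Maltreated libraries. The groups overlapped in both genes.

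Translation factors gave 0 members of 45 and chaperones 0 of 38. Over all genes 1.36% were members, so 0 in lists of this size lies near that share. Oxidative phosphorylation gave 4 of 79, the complex I subunits NDUFA13, NDUFB10 and NDUFS7 and the ATP synthase subunit ATP5I. Ubiquitin and proteasome genes gave 1 of 53, UBXN7, an adaptor of the VCP segregase, and spermatid calmodulin, phosphatase and kinase genes gave 1 of 20, the phosphatase inhibitor PPP1R11. In all, 37 members were in one of the 13 functional lists, 65 belonged only to a family counted by symbol, and 147 were in neither.

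Zinc finger genes were the largest family by symbol, with 41 members of 462, and 38 of these were among the 213 ZNF genes of chromosome 19. That chromosome held 79 members (31.7%) against 7.01% of all genes, and its other 1069 genes gave the remaining 41. Chromosomes 2a and X held none, of 582 and 739 genes. Olfactory receptor genes gave 4 members of 282 (1.42%), near the 1.36% of all genes, and keratin-associated proteins 3 of 61. SPATA genes gave 1 of 25, TMEM genes 2 of 245 and FAM genes 1 of 282. Genes named only by a chromosome open reading frame gave 13 of 585, while TEX and CCDC genes gave 0 of 24 and 0 of 150. Zinc finger, olfactory receptor, TAS2R and FUT genes have close relatives in tandem, and the assignment of reads among such copies is uncertain. LRRC37A and LRRC37A2 are listed at the same coordinates and with the same counts, and 16 members overlap another annotated gene on their strand, so members are not independent of each other.

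The counts of single exons split the members in another way. KLHDC2, a substrate receptor of a ubiquitin ligase on chromosome 14, has 13 exons of 52 to 488 bases, and in Control 4 their sense counts lay between 1354 and 1371 whatever their length. In POLE2, the second subunit of DNA polymerase epsilon, the last 7 of 17 exons each had exactly 993 counts in Control 4. For PHKG1, a phosphorylase kinase subunit with 10 exons, the counts in Control 4 were 651 or 652 on every exon, and in Maltreated 2 they were 719 or 720. In KLHDC2 and PHKG1 the counts of a library were nearly the same on every exon, and the height differed between libraries. POLE2 was less even over its first exons, with 1245 counts on exon 4 in Control 4 and 4078 on exon 5 against 3132 on exon 17 in Maltreated 1.

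Other members were uneven. In RPL35 the 4 exons had 3850, 5123, 1492 and 840 counts in Control 4, in order from the 5′ end. UBXN7 held 29645 counts on its exon 4 of 65 bases and 7 on its last exon of 3319 bases in the same library, and the last exon was still covered in full. GNB1, a G protein beta subunit, went from 7349 counts on exon 2 to 6 on its last exon of 2142 bases. MUC16, a membrane mucin with 81 exons and 41111 exonic bases, ranged in Control 4 from 1 to 6804 counts per exon. Its exons 1 to 5, of 104 to 6342 bases, each had 445 counts there, and exon 22 of 172 bases had the 6804. MUC16 was therefore even over a part of its length and uneven over the rest. It had 29149, 57921, 33554 and 21947 CPM in Control and 28961, 32357 and 33156 CPM in Maltreated libraries.

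**Figure D1:**
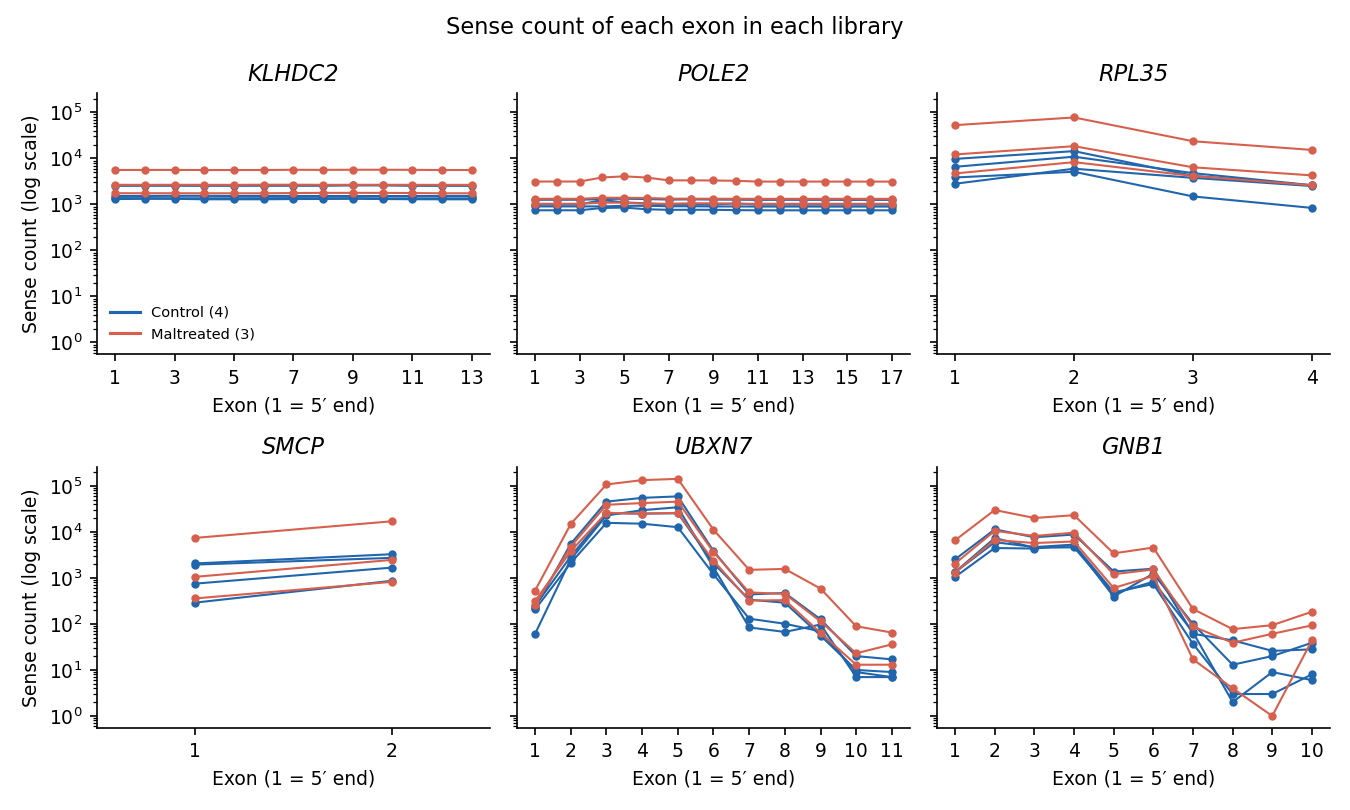
Sense count of each exon (log scale) against exon number from the 5′ end, 1 line per library, in 6 members. KLHDC2 is nearly flat in all 7 libraries, POLE2 is flat over its last exons with a slight hump before them, RPL35 and SMCP are uneven, and UBXN7 and GNB1 drop toward the 3′ end to as few as 7 and 1 counts.

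To describe this evenness, the lowest exon count times the number of exons was set against the gene's total, using each exon once. The median over the 226 members with several exons was 56.8%, against 3.65% in the comparison genes defined below. It was over 90% in 59 members and under 10% in 26. Nearly every exon of a member must carry a count to meet the rule, so this is a description and not a test.

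Long exons covered by few counts raised the question of what 1 count covers. Across all genes, exons longer than 1000 bases with exactly 1 sense count numbered 1042 to 1811 per library. Of these, 22.7% (Maltreated 2, exact 95% interval 20.6 to 25.03) to 32.01% (Control 4, 29.8 to 34.3) were covered in full, up to 12072 bases under a single count. Of the partly covered ones, 97.8 to 99.5% had at most 101 covered bases. That bound is their own 95th percentile over all libraries, so a high share was given in advance. Since 1 count could cover a long exon in full, a deposited coverage of 1 does not say that reads were laid on all bases of an exon. These intervals reflect counting alone, because copies made by PCR cannot be told from separate molecules here.

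When each count was allowed at most 101 covered bases of its exon, 138 of the 249 members (55.4%) still had 0.9 or more in all 7 libraries, and 63 were below 0.5 in some library. An exon whose count times 101 reaches its length is not affected by the limit. Keeping 0.9 therefore does not show that reads were laid on all bases. The label of near-complete coverage held under this limit for the 138 and not for the other 111. Those that kept it had a median length of 1424 bases, a median level of 154 CPM and 94.8 CPM per kilobase. The other 111 had 2658 bases, 19.96 CPM and 8.23 CPM per kilobase. All 5 packaging genes and all 13 ribosomal protein members kept it, as did 16 of the 41 ZNF members and 0 of the 4 olfactory receptors. Under the limit UBXN7 was at 0.444 in its lowest library, GNB1 at 0.512, CELF1, an RNA-binding splicing factor, at 0.163, and B3GALT2, a galactosyltransferase, at 0.057.

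At the thin end, 38 members had at most 10 sense counts in their lowest library, and 8 had only 2. These 8 were B3GALT2, C1QTNF4, FUT5, OR5B3, PDF, KRTAP15-1, METTL12 and KRTAP19-7, named after their values were seen. FUT5, a fucosyltransferase of 1 exon and 1499 bases, was covered in full by 2 counts in Control 4. In that library 30 members had more exonic bases than 101 for each of their counts, against 2 members in Maltreated 1. At the coverage bound itself, RPS6KB1 (0.903), KHDRBS3 (0.904), C7orf34 (0.905), ELOF1 (0.907) and SLFNL1 (0.908) were just inside by their lowest library, and MTCH2 (0.898), FKBP8 (0.896), MTRNR2L8 (0.892), SUZ12 (0.889) and RNF151 (0.885) just outside.

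Members lay side by side on the chromosome. For 181 of 249 (72.7%) the next annotated gene on the same strand, on one side or the other, was also a member, which was so for 1.22% of the comparison genes. There were 45 runs of at least 2 members, and 18 runs of 5 or more held 112 members. The longest was a run of 10 zinc finger genes on the minus strand of chromosome 19, from ZNF611 to ZNF665 over 609 kb (47387145 to 47995711). Runs of 8 were found on chromosome 3 (WDR53 to ZDHHC19), on chromosome 6 in the major histocompatibility region (MAMU-A to RPP21) and on chromosome 19 (MIDN to RPS15). The share with a member beside them was 67.4% among the 138 and 79.3% among the 111.

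Neighbours could carry the same number of counts per exon. On the plus strand of chromosome 14, LRR1, MGAT2, KLHDC1 and KLHDC2 follow each other between 111420536 and 111617159. Their lowest exon counts were 2553, 2575, 2534 and 2534 in Control 1, 1359, 1364, 1357 and 1354 in Control 4, and 5679, 5724, 5604 and 5588 in Maltreated 1. LRR1 and KLHDC2 have known roles in ubiquitin ligases, and MGAT2 has one in N-glycan synthesis. The next gene, the small GTPase gene ARF6, had only 15, 1 and 24 in the same 3 libraries and was also a member. Interleaved on the minus strand, RPL36AL, DNAAF2, POLE2 and NEMF had 1280, 1247, 1255 and 1294 in Control 1 and 979, 979, 993 and 1007 in Control 4.

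Both strands of this stretch were covered, and antisense counts were 33.9 to 36.5% of all counts in LRR1, MGAT2, KLHDC1 and KLHDC2, and 62.6 to 64.8% in the 4 minus-strand genes. The fucosyltransferases FUT6, FUT3 and FUT5 on chromosome 19 behaved alike at a far lower height. All 3 had a lowest exon count of 24 in Control 1, of 2 in Control 4 and of 14 in Maltreated 2, although they have 3, 2 and 1 exons. Their antisense counts made up 94.7 to 94.98% of the total.

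**Figure D2:**
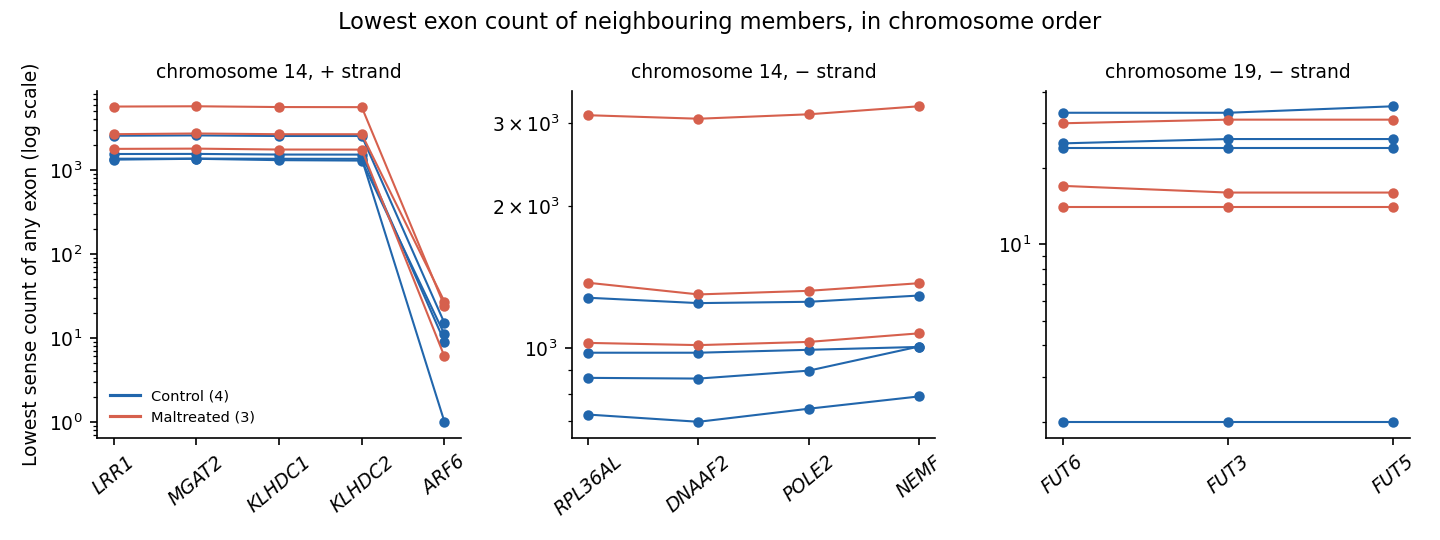
Lowest sense count of any exon (log scale) in neighbouring members in chromosome order, 1 line per library. The first 4 genes of the first panel stay level at 1291 to 5724 counts and drop to 1 to 27 at ARF6, while the 4 genes of the second panel and the FUT genes of the third stay within narrow bands in each library.

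Over all pairs of neighbouring members whose spans did not overlap, 130 in number, 52 had at least 5 counts on every exon in every library. In 16 of these the lowest exon counts of both genes differed by at most 10% in all 7 libraries. The pairs included ARID3A with WDR18, WDR53 with C3orf43, YJEFN3 with CILP2, and NEIL1 with SNX33, which lie 348719 bases apart. PRM1 with PRM2 was not among them. Of 17547 such pairs in which neither gene was a member, 0 had at least 5 counts on every exon in every library. The count of alike pairs therefore has nothing to be compared with among other genes.

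Against genes of like level, members were shorter. The comparison set held 12137 genes with sense coverage under 0.5 in some library whose mean CPM fell into a doubling (1 to 2, 2 to 4 and so on) that also held members. Length is the denominator of coverage, and a member must have counts on exons that hold nearly all of its bases. These differences are therefore a description and were not tested. Median exonic length was 2141 bases in members (73 to 41111), 3254 in the comparison set and 2701 in all genes. Divided by the median of comparison genes in its own doubling, the median member had 0.527 of their length and 0.333 of their exon entries. CPM sums counts over exon entries, so an alignment over several exons raises it more than once. The match by CPM is thus not free of exon number. With doublings of CPM per kilobase the ratios were 0.729 and 0.455. The median exon number was 5 against 11, and 9.24% of members had a single exon against 1.99%. Genes under 1 kb were 24.5% of members and 5.79% of the comparison set.

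**Figure D3:**
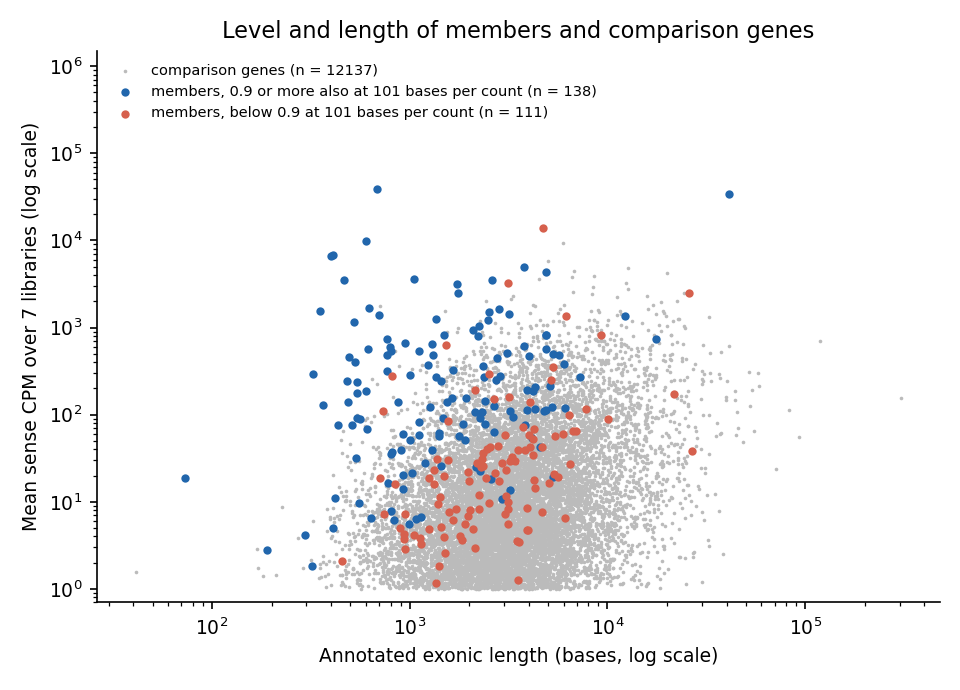
Mean sense CPM against annotated exonic length, both on log scales, with 1 point per gene. Members that keep 0.9 at 101 bases per count (138, blue) extend to the upper left above the grey comparison genes, and the other 111 (red) lie among them.

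The gap in length was wider at high levels. At 8 to 16 CPM the median was 2235 bases in 19 members and 3264 in 1723 comparison genes, and at 512 to 1024 CPM it was 1522 bases in 17 members and 7137 in 137 comparison genes. In every doubling that held comparison genes the members had the lower median length and the lower median exon number. The share of a doubling's genes that were members grew from 0.221% at 1 to 2 CPM to 24.1% at 2048 to 4096 CPM, and both genes above 32768 CPM, PRM2 and MUC16, were members.

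**Figure D4:**
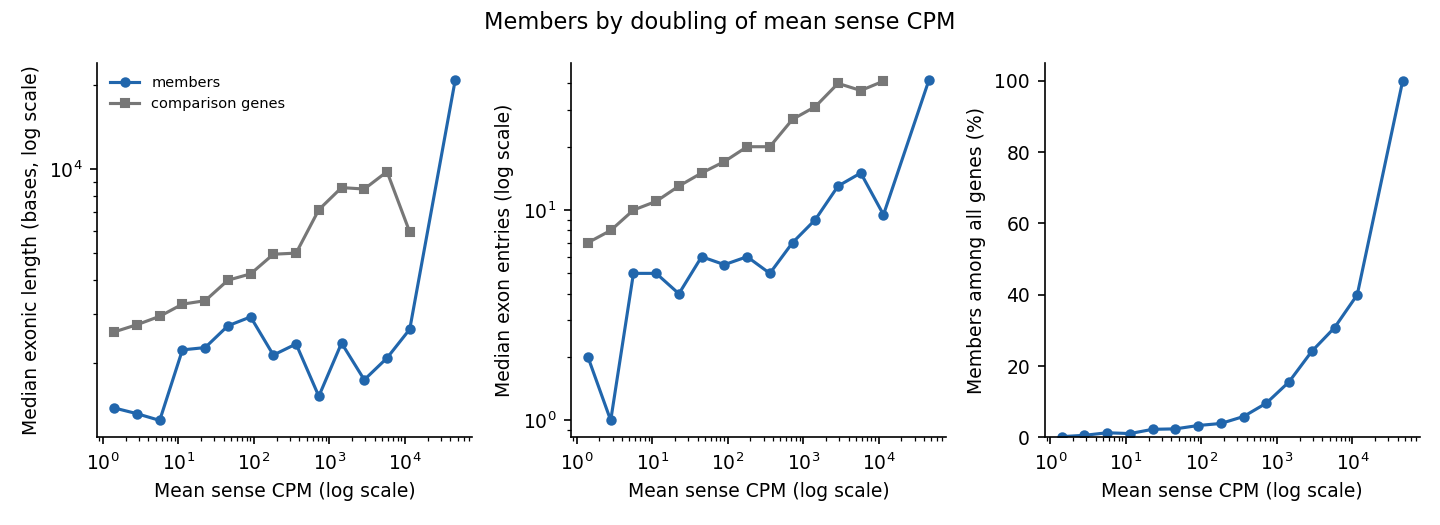
Median exonic length and median number of exon entries (log scales) of members and comparison genes, and the percentage of all genes that were members, in each doubling of mean sense CPM. Members lie below comparison genes in every doubling that holds both, and their share grows from 0.221% to 100%.

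A high level alone did not bring full coverage. The 5 comparison genes with the highest level were ANKRD36B (9367 CPM, lowest coverage 0.449), RSRC1 (5741, 0.338), HNRNPC (4865, 0.185), LIG3 (4444, 0.192) and ZMYND11 (4170, 0.148). HNRNPC, which encodes a nuclear RNA-binding protein, had 4756, 3694, 4779 and 4967 CPM in Control and 5261, 5948 and 4650 CPM in Maltreated libraries, a level like that of the member NEMF, a factor of ribosome quality control. NEMF had 4432, 4790, 5568 and 6283 CPM in Control and 3558, 5827 and 4311 CPM in Maltreated libraries. By the deposited fraction it was covered in full on all 33 exons. Each of these had 1007 to 1039 counts in Control 4, and the CPM of NEMF sums them. A like CPM therefore does not show a like number of transcripts. In HNRNPC the evenness measure was 0.180%, and in NEMF it was 98.7%.

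Members also included very long genes. The 10 longest ran from ZNF816 at 7254 bases to MUC16 at 41111 bases, with RBM12, RPS6KB1, WIPI2, HSD11B1L, SAFB, PFKFB2, MIB1 and CELF1 between. In several of these, exons are listed more than once, so that RBM12 had 26670 annotated bases and 6913 when each exon was used once. Of the 10, MUC16, HSD11B1L, SAFB and ZNF816 kept 0.9 at 101 bases per count. The 10 members with most exon entries were SAFB with 83, MUC16 with 81, RPS6KB1 with 75, HSD11B1L with 60, WIPI2 with 55, ABCA7 with 46, CDK11A with 41, TARS with 39, CCBL1 with 38 and NEMF with 33.

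The opposite strand was covered more often in members too. Antisense coverage was 0.9 or more in all 7 libraries for 32 members (12.9%), against 0.733% of the comparison set. The median antisense share of a gene's counts was 3.70% in members and 5.61% in the comparison set, but within doublings of level the median member had 1.53 times the share of comparison genes. Members were more abundant, and in both sets the median share was lower at high levels than at low ones. In 15 members more than 50% of the counts were antisense. The library kit and the way strands were kept are not given in the sources used here.

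Together the members held 18.1, 22.0, 19.4 and 16.4% of all sense counts in the 4 Control libraries and 21.0, 17.9 and 17.1% in the 3 Maltreated ones. The groups overlapped. Without the 4 members of highest CPM the share was 8.15 to 10.4%. The median coefficient of variation across libraries was 47.4% in members and 74.7% in comparison genes. These coefficients were not matched for level, and the median level was 60.2 CPM in members and 8.76 CPM in comparison genes. A gene that is thinly counted in a library is also less likely to be a member. In members the highest library was a median of 4.35 times the lowest. It was more than 10 times the lowest in 46 members and less than 2 times in 30.

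ALG14, an N-glycosylation enzyme subunit on chromosome 1, was among the most variable. It had 3150, 9163, 5819 and 1415 CPM in Control and 1384, 4429 and 27.1 CPM in Maltreated libraries, with nearly equal counts on its 4 exons in each (66 to 83 in Maltreated 3, 12641 to 12674 in Control 2). Its neighbour on the same strand, CNN3, an actin-binding calponin, had 807, 2334, 1476 and 379 CPM in Control and 354, 1161 and 14.4 CPM in Maltreated libraries, lowest in the same library. In CNN3 exon 1 held 12728 counts in Control 2 against 28 to 33 on each of the other 6 exons, and in Maltreated 3 it held 76 against 13 on each. These exon 1 counts lay near those on each ALG14 exon in the same libraries. In Control 4 they were 1899 in CNN3 and 1874 to 1884 in ALG14. The CPM of CNN3 can therefore not be read as independent of that of ALG14. By contrast KLHDC2 ranged only from 2379 to 3710 CPM and GNB1 from 2870 to 3613 CPM over the 7 libraries.

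No member differed between the groups at the threshold. Of the 249 members 247 passed the count filter, METTL12 and OR5B3 being the exceptions, and 0 of 247 had an adjusted p under 0.05 in edgeR's quasi-likelihood test, as did 0 of all 10719 genes (0%). The smallest adjusted p among members was 0.999. At an unadjusted p under 0.05 there was 1 member (0.405%), below the 1.78% of all tested genes, and in 12 members (4.86%) the groups did not overlap in CPM, near the 3.65% of all genes. DESeq2's Wald test called 0 members at an adjusted p under 0.05 and 4 at an unadjusted one, and it called 3 of all genes (0.028%).

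The 1 member with the smaller p was HMOX2, the constitutive haem oxygenase on chromosome 16. It had 588, 821, 592 and 714 CPM in Control and 460, 374 and 468 CPM in Maltreated libraries, and the groups did not overlap. Its log2 fold change was -0.68 ± 0.23 (SE), with an unadjusted p of 0.0130 and an adjusted p of 0.999 in edgeR. The 12 members without overlap also included RPLP2, a protein of the ribosomal stalk, with 193, 268, 214 and 124 CPM against 333, 284 and 309, and only RPLP2 and BLOC1S1 of the 12 were higher in the Maltreated group.

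Directions leaned to lower values in the Maltreated group. The log2 fold change was below 0 in 170 members and above 0 in 77 (31.2%), against 48.7% above 0 over all tested genes, and its median was -0.22 against -0.02. These signs are not independent, since neighbouring members can carry equal counts, and no test was made of them. Values ran from -1.87 in EFNA2 to 1.39 in ZNF20, and 89.5% of members lay within 1 of 0, against 77.7% of all tested genes.

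By list, 9 of the 13 ribosomal protein members had a positive log2 fold change, with a median of 0.13, and 3 of the 5 packaging genes did, with a median of 0.12. Of the 41 ZNF members 9 were positive, with a median of -0.25, and of the 4 oxidative phosphorylation members 0 were. No member of any list passed the test (0% called over all genes, as above). After HMOX2 the smallest unadjusted p among lower values were those of TARS, a threonyl-tRNA synthetase, at a log2 fold change of -0.67 ± 0.34 (SE), and of CIRBP, PCYT1A and ZNF682. TARS stood at -0.44 without Maltreated 1, CIRBP at -0.84 without Control 4 (-1.28 with all) and ZNF682 at -0.62 without Control 3 (-1.08 with all), where ZNF682 was -1.84 with age as a covariate and CIRBP -0.75 with a replicate block.

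Among higher values the smallest p belonged to C19orf70 at 1.23 ± 0.56 (SE), ZNF20, RPLP2, RPS18 and GPX4. C19orf70 was at 0.56 without Maltreated 1 and at 0.40 ± 0.86 (SE) with age as a covariate. RPLP2 went from 0.59 to 0.25 with that covariate. Control males were 5.72 to 5.92 years old and Maltreated males 5.67 to 5.78 years. Age and group can therefore not be fully told apart in these fits. ZNF20 had 36.4, 46.7, 39.0 and 19.2 CPM in Control and 43.2, 208 and 26.4 CPM in Maltreated libraries, so its log2 fold change of 1.39 ± 0.68 (SE) rested on Maltreated 2, and without that library it was -0.082 (0.54 with a replicate block and 0.70 with age as a covariate). GPX4 had 1238, 891, 1368 and 1514 CPM in Control and 4204, 914 and 1294 CPM in Maltreated libraries, and its 0.76 ± 0.46 (SE) became -0.25 without Maltreated 1 and 0.32 with age as a covariate. RPS18 had 199, 274, 110 and 98.4 CPM against 545, 160 and 264, with overlapping groups, and its log2 fold change of 0.90 became 0.23 without Maltreated 1.

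**Figure D5:**
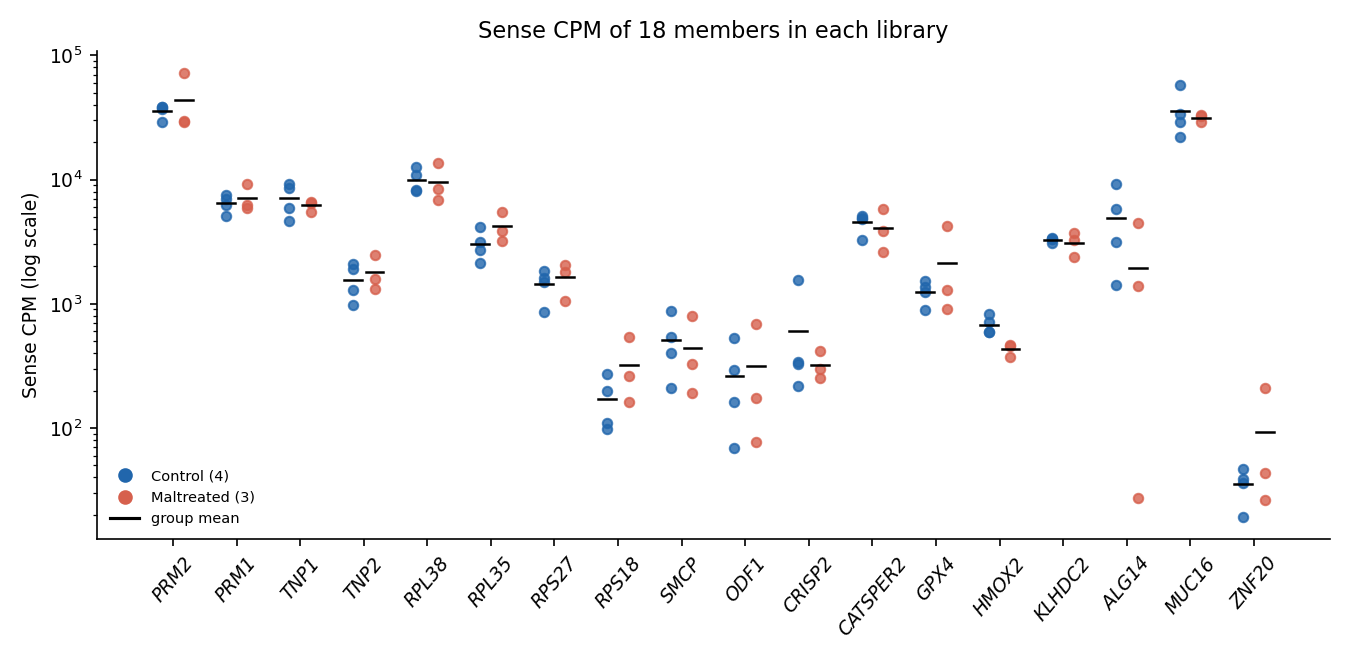
Sense CPM (log scale) of 18 members in each library, with Control in blue, Maltreated in red and black bars for group means. The groups overlap in all but HMOX2, where Control lies at 588 to 821 and Maltreated at 374 to 468 CPM, and ALG14 shows 1 Maltreated library at 27.1 CPM.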

How the data were processed

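The analysis used deposited values for 7 sperm libraries, grouped by the labels. Per the labels, each library has a forward and a reverse strand file. Per the file headers, a table gives for each gene and strand the read count, covered bases and the covered fraction, made by the authors with no normalisation stated. The submitters' processing notes name STAR, featureCounts and bedtools. Versions, the genome build and the annotation are not given in the sources used here, and coordinates are those of the files, counted from 1. Gene counts equalled the sums of the deposited exon counts in all 7 libraries. RTN3 and ZC3HAV1, listed on both strands, were left out. Of the 249 member symbols, 194 are current in the supplied name tables, 4 are synonyms and 51 match none.

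The members, gene lists and tests were chosen with earlier results of these data known. Genes were tested with edgeR 4.0.16 (R 4.3.3; TMM factors, filterByExpr with a minimum count of 10 and a minimum total of 15, quasi-likelihood F test, Benjamini-Hochberg over 10719 genes) and checked on simulated data. SE is the log2 fold change over the square root of F. DESeq2 1.42.0 was an alternative, as were other scalings, filters, coverage bounds, unique exons, age as a covariate, a replicate block and leaving out each library. The limit of 101 bases per count (the 95th percentile of bases under 1 count on partly covered long exons) and leaving out Control 4 and Maltreated 3 were added after seeing the data.

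Named genes were the 20 members highest per kilobase, the 10 longest, the 10 with most exons, the 3 most abundant of each list, the 5 smallest p in each direction, the 5 genes on each side of the coverage bound and the 5 most abundant comparison genes. Others were chosen after their values were seen. The labels give no link between animals of equal number.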

Additional observations from a re-analysis of the deposited data

Results flagged for a closer look

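Of 106 values checked in the 4 Control libraries, 10 had a highest or lowest library whose gap to the next, as a share of the range, exceeded Dixon's critical value, which chance does in about 1 of 20 groups. In 6 of the 10 that library was Control 4, the shallowest library and one of the pair high in leukocyte genes. Control 4 was highest for CRISP2 (1553.9 CPM against 216.17 to 340.18 in the other Control libraries), SLFNL1 (980.74 against 269 to 382.66), OR5B3 (13.919 against 0.36179 to 2.1325) and METTL12 (6.0191 against 0.33318 to 0.60928). It was lowest for PRM2 (29295 against 37107 to 38695) and for the comparison gene ANKRD36B (8567.5 against 10067 to 10368). Control 2 was highest for GATAD2A, a chromatin remodelling subunit (893.99 against 346.29 to 436.95), and lowest for the comparison gene HNRNPC (3693.5 against 4756.4 to 4966.9). Control 3 was lowest for CATSPER2 (3289 against 4846.3 to 5091.1), and Control 1 for TARS (329.82 against 661.53 to 698.18). The part of leukocyte RNA or depth in these values was not tested.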

How the results depend on the processing

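With covered bases limited to 101 per count, 138 genes met the rule, with a median length of 1423.5 bases, an antisense share of 2.16%, 0.305 of the length and 0.294 of the exon number of genes of like CPM, and 16.2% of sense counts. Without Control 4 and Maltreated 3 it was met by 431 genes with 21.3% of sense counts, and leaving out 1 library at a time gave 249 to 408 genes with 18.8 to 21.4%. The share of sense counts was 22.9, 22.2 and 14.9% at bounds of 0.8, 0.85 and 1, and 21.4% with each exon used once, and at a bound of 1 the median antisense share was 6.002%. With doublings of counts per kilobase the members had 0.729 of the length, 0.455 of the exon number and 2.22 times the antisense share of comparison genes, and with doublings of the CPM in Control 4 the antisense ratio was 1.22. The cause of these shifts was not tested. No member was called under any of the 16 alternatives of the group test, and age as a covariate called 1 gene that was no member. The median log2 fold change of members was -0.36 to -0.13 with 1 library left out. Over genes, deviations from the group mean correlated at 0.0749, 0.00993 and -0.0194 between libraries of equal replicate number. Pairs of unequal number ran from -0.114 to 0.0932. Such correlations cannot show whether libraries of equal number share more than the number. A replicate block gave a median of -0.15, 0 members called and 13 members (275 genes) at an unadjusted p under 0.05, against 1 (191) without it. Replicate 4 exists only in the Control group, so Control 4 adds nothing to the group difference in that fit. Shifts under the block therefore cannot be told apart from leaving out Control 4. ZNF20 reversed to -0.082 without Maltreated 2 and GPX4 to -0.25 without Maltreated 1, and with 1 library left out they ran up to 1.84 and 1.10. Unadjusted, DESeq2 gave 327 genes and edgeR without a filter 784. The 408 genes were those without Control 4, which had the fewest sense counts and the second highest summed leukocyte CPM. By contrast, the fewest genes at 0.9 or more in a single library were found in Maltreated 2.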
